A study of Mus musculus with 4 samples.

Results

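The Hox genes encode transcription factors that bind DNA through a homeodomain and are arranged in 4 clusters, Hoxa, Hoxb, Hoxc and Hoxd, in which a gene's number gives its position. The 38 genes described here are the members listed for clusters A to D, chosen by name, with earlier results of these data known. They are set against 18194 genes represented on the array. Of the 38 genes, 33 had at least 1 probe set annotated with that single gene symbol: 9 in cluster A, 9 in cluster B, 7 in cluster C and 8 in cluster D. Hoxa6, Hoxc11 and Hoxc12 had none. Hoxb8 and Hoxd4 were present only on probe sets that also name a neighbour, so these 5 genes were not analysed here. Where a gene had several probe sets, the one of highest mean log2 signal was used.

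Genes at neighbouring positions are transcribed in the same direction and tend to be active in blocks along a cluster. In blood formation, Hox proteins of the central and posterior groups act with TALE homeodomain partners such as Meis1 and the Pbx proteins, and genes of clusters A and B are those best known in stem and progenitor cells, where the histone methyltransferase Kmt2a helps to keep them active. Hoxa9 together with Meis1 drives myeloid leukaemia when both are overproduced, and Hoxb4 expands haematopoietic stem cells when overproduced.

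Expression was measured on 4 Affymetrix 3' arrays in the stem and progenitor fraction of bone marrow from C57BL/6 mice, sorted as Lin-Sca-1+c-Kit+ and called LSK below. The marrow had been reconstituted with fetal liver cells that were either necdin null, lacking the growth-suppressing protein encoded by Ndn, or wild type, and all mice had then been irradiated at 6.5 Gy, a sublethal dose. There were 2 necdin null and 2 wild type arrays, and no array of cells without irradiation was analysed here. The animals' age, the time from irradiation to collection, the share of host cells left in the marrow and the number of animals behind an array are not given in the sources used here. Since no label ties the replicates to separate animals, p-values measure the spread between these samples alone, which may be technical in part.

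Values are MAS5 signals on a linear scale, with a median over all probe sets between 53.7 and 63.2 per array. Ndn had signals of 55.4 and 105 on the necdin null arrays, against 253 and 255 on the wild type arrays. Necdin null replicate 2 stood apart in its Gapdh 3' to 5' signal ratio, 15.8 against 9.96 to 11.7 on the other arrays, and in the share of all signal held by the brightest 1% of its probe sets, 37.4% against 28.9% to 30.6%. Replicates also differed in Xist, the transcript of the inactive X chromosome, at 4841 and 76.8 on the necdin null arrays, against 9930 and 7182 on the wild type arrays. Eif2s3y, on the Y chromosome, gave 2273 and 2987 for necdin null cells against 32.6 and 1974 for wild type cells, so wild type replicate 1 stood apart as well, and neither group's arrays hold the same RNA. Of the LSK markers, 7 of the 8 measured were above 100 on all 4 arrays, among them Kit at 3744 to 6617 and Cd34 at 13407 to 15252. Ly6a, which encodes Sca-1, was not analysed here.

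Promoters from cluster A are shown because that cluster held 3 of the 4 Hox genes above background on every array, and because Hoxa11, the next Hox gene beyond Hoxa10, was below it. Each sequence is 300 bases, from 250 before to 50 after an annotated start in RefSeq (build GRCm38.p6, chromosome 6, minus strand, printed 5′ to 3′), and capitals mark CpG dinucleotides. None of these windows has been measured on the array, whose probe sets read the 3' part of a transcript.
Hoxa5, chr6:52204538-52204837: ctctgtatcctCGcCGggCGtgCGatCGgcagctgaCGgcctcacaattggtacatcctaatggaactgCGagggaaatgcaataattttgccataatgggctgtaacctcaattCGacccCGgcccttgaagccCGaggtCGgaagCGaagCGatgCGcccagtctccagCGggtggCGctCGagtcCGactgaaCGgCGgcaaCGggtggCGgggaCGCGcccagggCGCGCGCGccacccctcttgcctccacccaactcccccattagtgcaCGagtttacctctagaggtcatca
Hoxa9, chr6:52227321-52227620: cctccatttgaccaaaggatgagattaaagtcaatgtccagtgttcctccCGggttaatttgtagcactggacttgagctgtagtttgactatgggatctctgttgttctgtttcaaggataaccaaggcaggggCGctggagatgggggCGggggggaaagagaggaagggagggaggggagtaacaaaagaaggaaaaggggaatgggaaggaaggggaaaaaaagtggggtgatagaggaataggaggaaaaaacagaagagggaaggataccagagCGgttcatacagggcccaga
Hoxa10, chr6:52234890-52235189: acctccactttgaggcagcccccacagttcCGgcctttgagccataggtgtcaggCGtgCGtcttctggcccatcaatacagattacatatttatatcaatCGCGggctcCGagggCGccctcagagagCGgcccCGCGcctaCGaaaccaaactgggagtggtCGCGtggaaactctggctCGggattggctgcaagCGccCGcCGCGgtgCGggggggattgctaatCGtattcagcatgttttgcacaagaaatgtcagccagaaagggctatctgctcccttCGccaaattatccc
Hoxa10, chr6:52240805-52241104: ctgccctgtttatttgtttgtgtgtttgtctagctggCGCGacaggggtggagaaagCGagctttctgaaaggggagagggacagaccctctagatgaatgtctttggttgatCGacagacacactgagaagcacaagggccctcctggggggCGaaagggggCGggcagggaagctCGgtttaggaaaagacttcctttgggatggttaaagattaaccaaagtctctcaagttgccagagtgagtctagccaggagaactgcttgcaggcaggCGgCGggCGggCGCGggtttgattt
Hoxa11, chr6:52245761-52246060: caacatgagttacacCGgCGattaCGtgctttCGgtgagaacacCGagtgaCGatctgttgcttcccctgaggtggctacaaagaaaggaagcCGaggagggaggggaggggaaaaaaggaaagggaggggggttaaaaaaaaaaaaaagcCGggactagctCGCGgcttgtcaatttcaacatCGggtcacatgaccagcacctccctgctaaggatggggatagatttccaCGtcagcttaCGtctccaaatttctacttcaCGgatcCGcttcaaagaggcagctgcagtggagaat

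The Hoxa5 window held 29 CpG dinucleotides, the Hoxa9 window 4, the Hoxa10 windows 21 and 12, and the Hoxa11 window 15. The median was 7 over all 32851 promoters in the table, and 14.5 over the 24 windows of the 22 Hox genes listed there, with a range of 4 to 45. The window of Hoxa9 was thus as poor in CpG as any Hox window in the table. The Hox and Pbx site TGATNNAT and the Meis site TGACAG, searched on both strands, were in none of the 5 windows printed. They were in 4 and 2 of the 24 Hox windows (16.7% and 8.33%), and in 8.85% and 19.2% of all promoters. Such matches describe letters only.

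Hox transcripts above background on every array came from few genes, all of them in clusters A and B. A signal above 100 on all 4 arrays was found for 4 of the 33 measured genes: Hoxa5, Hoxa9 and Hoxa10 in cluster A and Hoxb2 in cluster B. This was 12.1% of the measured Hox genes, against 9099 of all 18194 genes. The same 4 genes were counted without necdin null replicate 2. Another 4 genes passed 100 on some arrays only, namely Hoxa7, Hoxb3, Hoxb4 and Hoxb5. The remaining 25 genes, 75.8% of those measured, did not reach 100 on any array, against 40.9% of all genes.

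**Figure D1:**
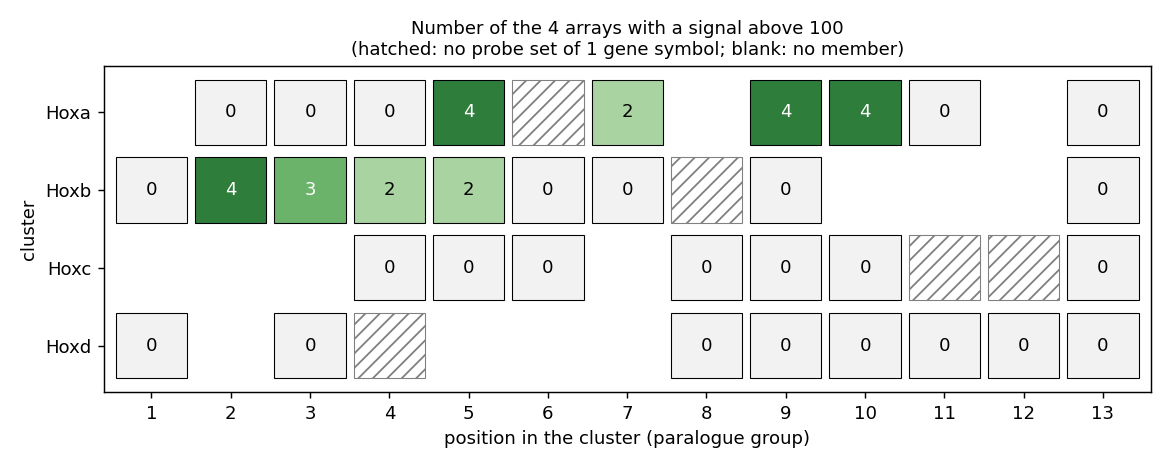
Grid of the 38 Hox genes, with cluster on the vertical axis and position on the horizontal axis; the number in each cell is how many of the 4 arrays had a signal above 100. Cells with at least 1 such array lie in cluster A at positions 5, 7, 9 and 10 and in cluster B at positions 2 to 5, and all measured cells of clusters C and D hold 0.

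The stretches below background lay differently in each cluster. In cluster B the genes above 100 on at least 1 array were Hoxb2 to Hoxb5. They were flanked by Hoxb1 with signals of 6.84 to 29.8 and by Hoxb6 with 13.2 to 62.7. No single array held this whole run, as Hoxb4 passed 100 only on necdin null arrays and Hoxb5 only on wild type arrays. In cluster A the corresponding genes ran from Hoxa5 to Hoxa10, with Hoxa6 not measured. On the anterior side the main probe sets of Hoxa2, Hoxa3 and Hoxa4 reached at most 53.2 and another Hoxa3 probe set 61.0, and on the posterior side Hoxa11 reached 43.0 and Hoxa13 reached 40.5. In cluster C the highest main signal was 70.0, of Hoxc6, of which another probe set reached 99.3 on wild type replicate 2. In cluster D no probe set exceeded 68.3, the highest signal of Hoxd13, a regulator of digit formation. By position, above-background genes numbered 1 of 7 at positions 1 to 3, 1 of 12 at positions 4 to 8 and 2 of 14 at positions 9 to 13. A probe set that does not respond and a gene that is not transcribed give the same low signal, so these values bound what the array detected.

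**Figure D2:**
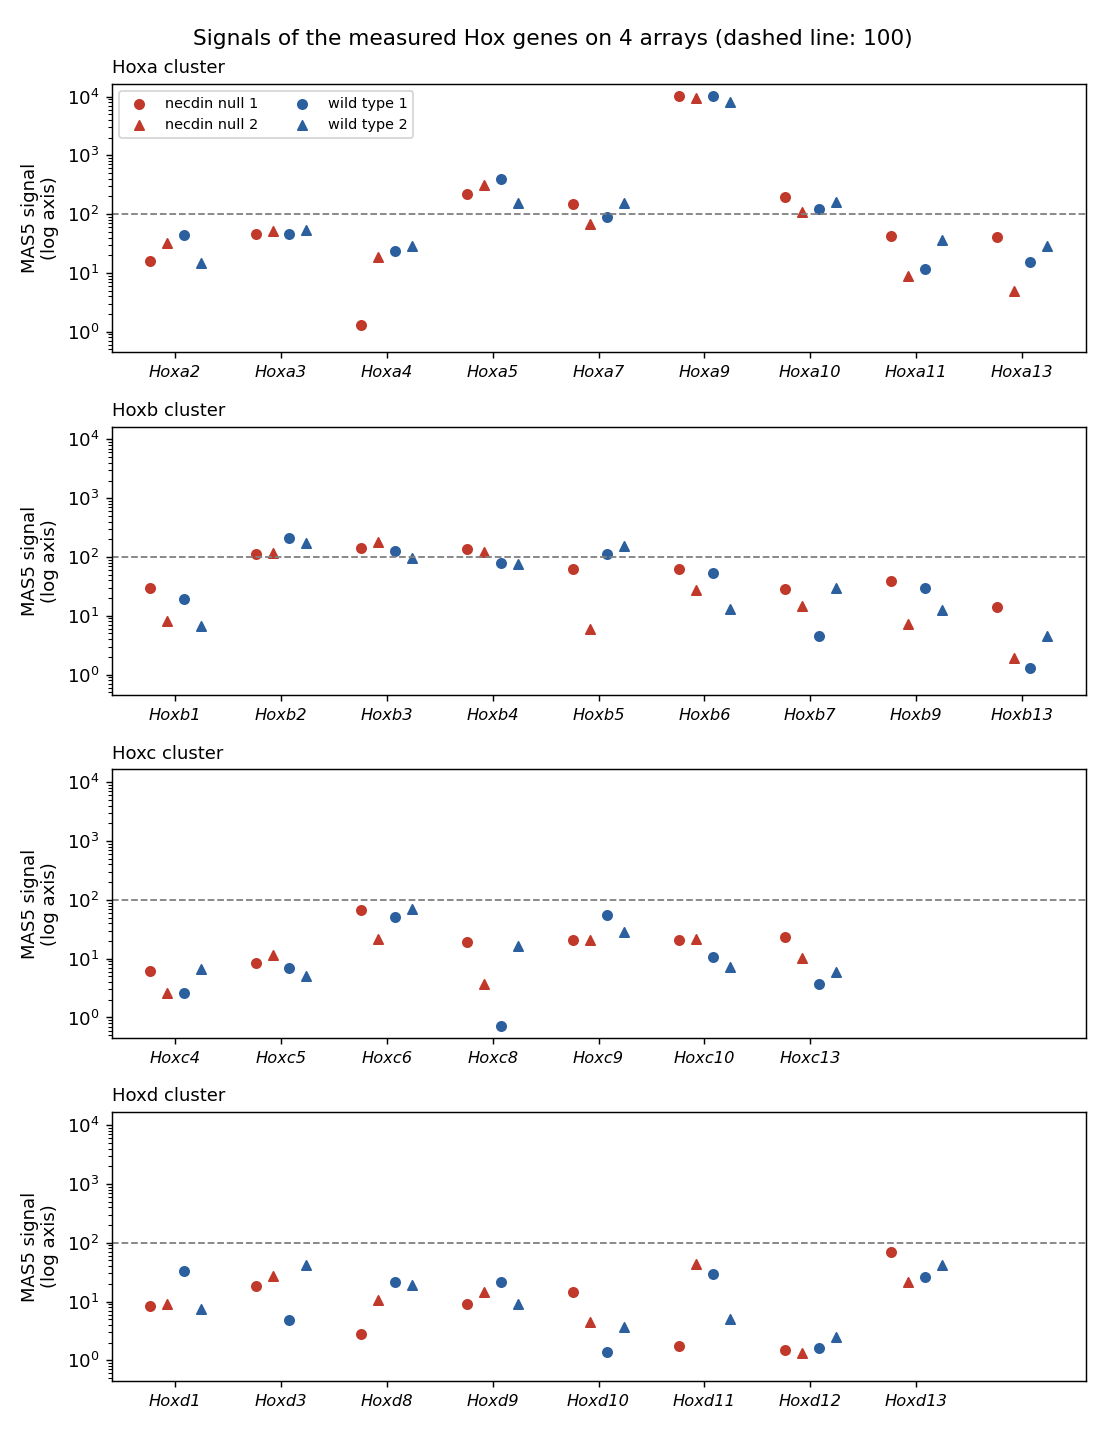
MAS5 signals (log axis) of the 33 measured Hox genes in 4 panels, 1 per cluster, ordered by position; red marks necdin null and blue wild type arrays, and the dashed line marks 100. Hoxa9 lies between 8144 and 10273 on all arrays, while every point of clusters C and D lies below the line.

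The threshold of 100 separated genes of similar signal. Just inside it were Hoxa10, whose lowest signal was 108, and Hoxb2, whose lowest was 110. Ndn on necdin null replicate 2, at 105, passed 100 as well, and whether signals this close to 100 come from transcript was not tested. Just outside were Hoxb3, which fell below 100 only on wild type replicate 2 at 95.3, and Hoxb4, with 75.3 there. At a threshold of 50 on all arrays, 7 genes were counted (Hoxa5, Hoxa7, Hoxa9, Hoxa10, Hoxb2, Hoxb3 and Hoxb4), and at 200 only Hoxa9.

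No Hox gene passed the test between necdin null and wild type cells. In limma's test across all genes, with Benjamini-Hochberg adjustment and a threshold of 0.05, 0 of 12680 genes passed (0%), and thus 0 of the 12 Hox genes that were bright enough on average to enter it. At an unadjusted p under 0.05 there was 1 Hox gene, Hoxb5, and 383 genes in all, 3.02% of those tested. The lowest adjusted p among the 12 Hox genes was 0.999. An exact permutation test of 2 arrays against 2 cannot give a two-sided p below 0.333. Differences below are necdin null minus wild type on the scale of log2(signal + 3.80), which understates the change of dim genes.

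Among the 12 tested Hox genes, 8 had positive and 4 negative differences (median 0.08), against 5824 higher and 6856 lower and a median of -0.03 over all genes tested. The groups did not overlap for 4 of the 12, beside 30.5% of all genes tested. Of these, 2 were higher in both necdin null arrays (12.8% of all genes tested were) and 2 were lower in both (17.7% were). All 4 belonged to cluster B, where 4 of 5 tested genes had groups apart, while 0 of 5 did in cluster A. Hoxb5 entered the test only through its high wild type signals, as its necdin null mean log2 value lay under the filter of 5.09. The contrast of the clusters rests on 2 arrays a group and was not tested, so it supports nothing about them. The share over all Hox genes was near that of all genes.

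Hoxa9, a factor that promotes the growth of haematopoietic stem and progenitor cells, had signals of 10193 and 9403 on the necdin null arrays, against 10273 and 8144 on the wild type arrays. The necdin null signals lay within the wild type range. The means were 9798 ± 559 in necdin null and 9208 ± 1505 in wild type cells (SD, n = 2 each). The log2 difference was 0.10, its standard error 0.20 and its limma 95% interval -0.37 to 0.56. A second Hoxa9 probe set was much dimmer, at 126 and 168 in necdin null and 114 and 230 in wild type cells. It overlapped between the groups as well.

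Hoxa10, which acts in early myeloid and megakaryocytic progenitors, had 198 and 108 on the necdin null arrays, against 123 and 158 on the wild type arrays. The necdin null arrays were the highest and the lowest of the 4, so the spread within a group exceeded the difference between groups (log2 difference 0.07, standard error 0.46). Its main probe set is of the kind that can read several transcripts of 1 gene, and its other probe set had at most 30.6.

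Hoxa5, best known for its role in lung and skeletal development and also active in blood progenitors, had 223 and 310 on the necdin null arrays, against 388 and 154 on the wild type arrays. Here the wild type arrays were the highest and the lowest (log2 difference 0.10, standard error 0.47). The second probe set gave 118 and 183 in necdin null and 159 and 97.1 in wild type cells, with wild type replicate 2 again the lowest. The main probe set is of a type that can also bind related transcripts, and the second missed 100 on wild type replicate 2 alone.

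Hoxa7, at which retroviral insertions recur in mouse myeloid leukaemia, had 149 and 69.0 on the necdin null arrays, against 89.4 and 153 on the wild type arrays. Its order over the arrays was nearly the reverse of that of Hoxa5: necdin null replicate 1 and wild type replicate 2 were the high arrays for Hoxa7 and the low ones for Hoxa5. Hoxa7 had a log2 difference of -0.20 (standard error 0.54). The 3 genes of cluster A above background had a median difference of 0.10.

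In cluster B the 4 genes above 100 on at least 1 array had differences pointing both ways. Hoxb4 passed 100 only on necdin null arrays and Hoxb5 only on wild type arrays, so each was named through the group where it was high, and their lack of overlap supports nothing about the cluster. Hoxb2, a patterning gene of the hindbrain, had 110 and 115 on the necdin null arrays, against 210 and 175 on the wild type arrays. Both necdin null signals lay below both wild type signals, with means of 113 ± 3.41 and 193 ± 24.1 (SD, n = 2 each). The log2 difference was -0.75, with standard error 0.41, a 95% interval of -1.67 to 0.18 and a limma adjusted p of 0.999.

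Hoxb3 and Hoxb4 lay the other way. Hoxb3, which acts with Hoxb4 in the growth of blood progenitors, had 145 and 177 on the necdin null arrays, against 127 and 95.3 on the wild type arrays (log2 difference 0.52, standard error 0.43). Hoxb4 had 137 and 122 on the necdin null arrays, against 80.6 and 75.3 on the wild type arrays. Only the necdin null arrays passed 100 for Hoxb4, with means of 129 ± 10.8 in necdin null and 77.9 ± 3.70 in wild type cells (SD, n = 2 each). The log2 difference was 0.70, with standard error 0.46 and a 95% interval of -0.35 to 1.75. The second Hoxb4 probe set gave 39.5 and 12.6 against 54.6 and 40.6, below background and with the opposite direction. With the mean of both probe sets the Hoxb4 difference was -0.12.

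Hoxb5, whose expression marks long-term stem cells in mouse marrow, had 63.2 and 6.08 on the necdin null arrays, against 114 and 155 on the wild type arrays. Neither necdin null array reached 100, while both wild type arrays passed it. Its log2 difference was -2.41, with standard error 0.87, a 95% interval of -4.38 to -0.44, an unadjusted limma p of 0.022 and an adjusted p of 0.999. The size rested largely on necdin null replicate 2, the array with the highest Gapdh ratio: without it the difference was -1.03 (limma adjusted p = 0.99997), and without necdin null replicate 1 it was -3.79 (limma adjusted p = 0.12). Hoxb5 has a single probe set on the array.

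**Figure D3:**
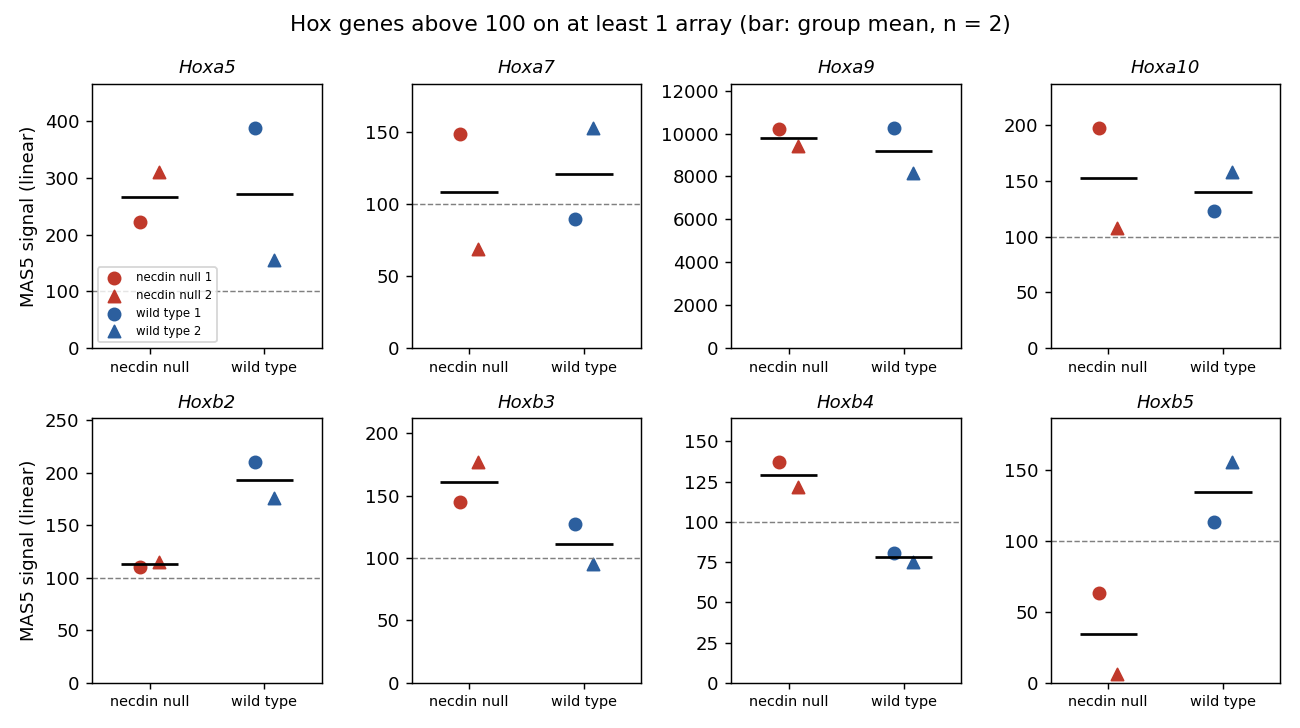
MAS5 signals (linear axis) of the 8 Hox genes above 100 on at least 1 array, with necdin null on the left and wild type on the right of each panel; circles are replicate 1, triangles replicate 2, bars group means, and the dashed line marks 100. The groups overlap for the 4 genes of cluster A and are apart for the 4 of cluster B, lower in necdin null for Hoxb2 and Hoxb5 and higher for Hoxb3 and Hoxb4. Hoxb4 passed 100 only on necdin null arrays and Hoxb5 only on wild type arrays.

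The other tested genes were dim. Hoxb6 had 62.7 and 27.3 in necdin null and 53.7 and 13.2 in wild type cells, and Hoxa3 had 46.7 and 52.2 against 45.2 and 53.2. Hoxc6 had 66.0 and 21.5 against 50.7 and 70.0, and Hoxd13 had 68.3 and 21.5 against 26.5 and 42.4. All 4 overlapped between the groups. Another Hoxa3 probe set, also below background, had groups apart, at 53.6 and 61.0 in necdin null and 5.74 and 13.1 in wild type cells.

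**Figure D4:**
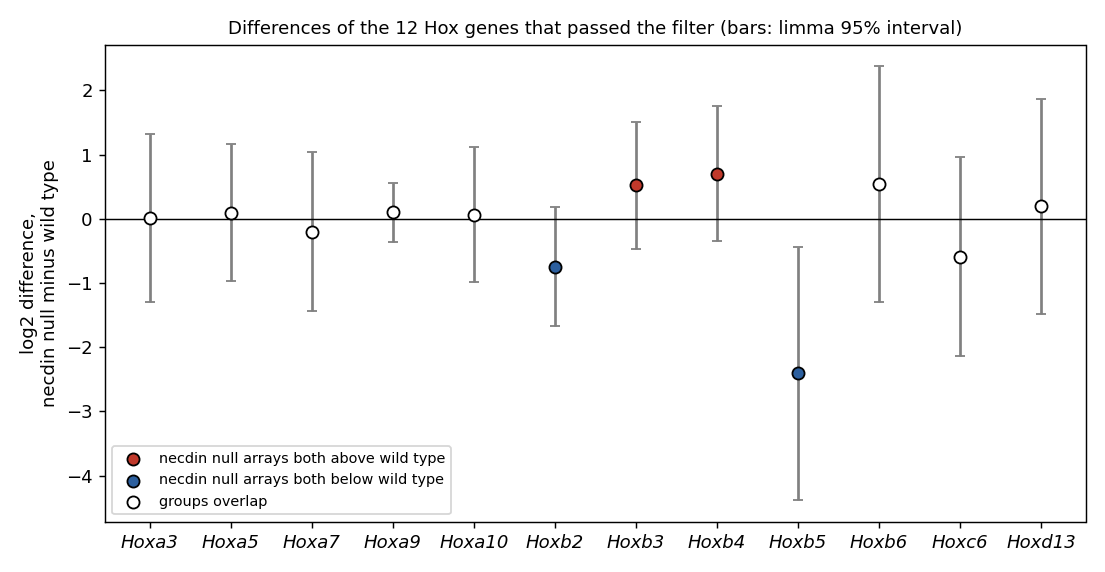
Log2 difference, necdin null minus wild type, of the 12 Hox genes that entered the test, ordered by cluster and position, with limma 95% intervals as bars. Only the interval of Hoxb5 lies clear of 0, at -4.38 to -0.44 before adjustment, and open points mark the 8 genes whose groups overlap.

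The 21 genes that did not enter the test had mean log2 values under 5.09 (a signal of 30.3) and are described by their range alone. They were Hoxa2, Hoxa4, Hoxa11 and Hoxa13; Hoxb1, Hoxb7, Hoxb9 and Hoxb13; Hoxc4, Hoxc5, Hoxc8, Hoxc9, Hoxc10 and Hoxc13; and Hoxd1, Hoxd3, Hoxd8, Hoxd9, Hoxd10, Hoxd11 and Hoxd12. Their signals ran between 0.72 and 54.6. Over all 33 measured genes, 17 had positive and 16 negative differences, and the median was 0.0096.

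The non-coding transcript Hoxb5os, which stands between Hoxb6 and Hoxb7 in the order of the RefSeq annotation, was above 100 on every array, while both of those genes were below 100 on every array. It had 786 and 724 on the necdin null arrays, against 911 and 531 on the wild type arrays (log2 difference 0.12, standard error 0.29). The groups overlapped, so Hoxb5os did not share the separation of Hoxb5. Hoxa11os, transcribed opposite Hoxa11, had at most 35.5, and Hoxa11 was below background too. Levels of different probe sets cannot be compared as transcript amounts.

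Among Hox partners of the TALE class, 6 of 10 measured genes were above background on every array, and 0 of 8 tested passed, with 6 higher and 2 lower and a median of 0.05. Meis1, the main partner of Hoxa9 in progenitors, had 6055 and 6090 on the necdin null arrays, against 7193 and 5090 on the wild type arrays. The necdin null arrays lay within the wild type range (log2 difference 0.0052, standard error 0.21). Pknox1, which binds DNA with Pbx proteins, had 827 and 702 against 365 and 746, also overlapping. Tgif1 and Tgif2, repressors of the same class, had differences of 0.09 and 0.02. Over the 8 tested partners, 1 was apart and higher in necdin null and 1 was apart and lower. The shares over all genes tested were 12.8% and 17.7%.

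Among regulators of Hox chromatin, 0 of 19 tested genes passed, with 6 higher and 13 lower and a median of -0.03. Those of highest signal were Gmnn, which binds Hox proteins (difference 0.0022), Dpy30 and Wdr5, core subunits of the Kmt2 complexes (-0.12 and -0.01), and the insulator protein Ctcf (-0.14). The groups overlapped for all 4. Over the 19 tested regulators, 1 was apart and higher in necdin null and 2 were apart and lower. The shares over all genes tested were 12.8% and 17.7%. Cdx1, Cdx2 and Cdx4, which activate Hox genes in the embryo, had at most 32.8 on any array.

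Most genes flanking the clusters were above background. Of 20 measured neighbours, 15 were above 100 on all arrays, and 0 of 16 tested passed, with 6 higher and 10 lower and a median of -0.10. Skap2, the neighbour of the anterior end of cluster A, had 9538 and 10661 in necdin null and 10248 and 8286 in wild type cells. Beyond the posterior end of cluster A, Hibadh had 4871 and 3862 against 4225 and 3546, and Tax1bp1 had 5033 and 4667 against 4549 and 3794. The groups of Skap2 and Hibadh overlapped and those of Tax1bp1 did not.

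Both neighbours with an unadjusted limma p under 0.05 flank cluster C, whose 7 measured Hox genes were all below background. The 2 neighbours were among 16 tested, beside 3.02% of all genes tested at that p. Smug1, a DNA repair glycosylase, had 469 and 362 on the necdin null arrays, against 791 and 601 on the wild type arrays (log2 difference -0.74, standard error 0.28, limma adjusted p = 0.999). Hnrnpa1, an RNA-binding protein, had 3150 and 2617 against 4724 and 3619 (log2 difference -0.53, standard error 0.21, limma adjusted p = 0.999). Both had lower signals on each necdin null array than on either wild type array, and neither passed after adjustment.

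**Figure D5:**
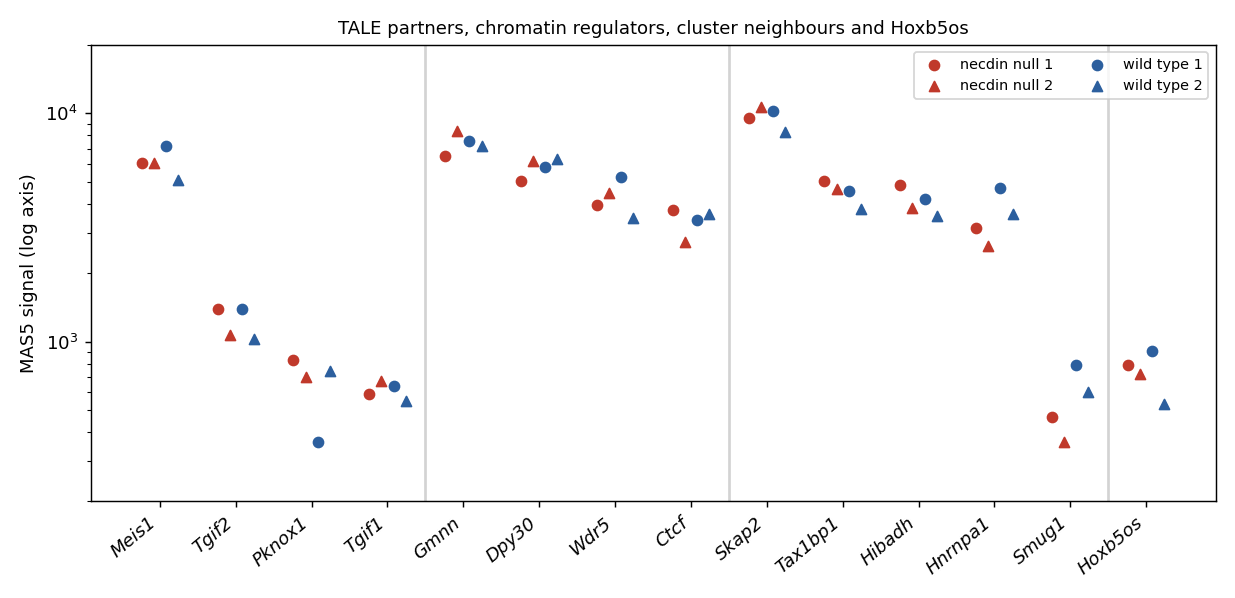
MAS5 signals (log axis) of TALE partners, chromatin regulators, cluster neighbours and Hoxb5os on the 4 arrays, with necdin null arrays in red left of wild type arrays in blue. Tax1bp1, Hnrnpa1 and Smug1 have groups apart, Tax1bp1 higher and the other genes lower in necdin null, and the remaining genes shown overlap.

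Genes associated with Hoxa9 and Meis1 in progenitors were all above background, 14 of 14, and none passed, with 7 higher and 7 lower and a median of -0.02. Myb, required for definitive blood formation, had 13437 and 19321 in necdin null and 15804 and 14955 in wild type cells. Lmo2, an adaptor of stem cell transcription complexes, had 14831 and 19866 against 13859 and 14230, with groups apart (difference 0.29). Erg, a stem cell transcription factor, was apart the other way, at 2137 and 1703 against 2908 and 2245 (difference -0.42). Sox4 and Cd34 had differences of 0.14 and 0.03.

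Markers of other cells varied between the arrays of both groups. The 11 neutrophil markers summed to 98573 and 201750 on the necdin null arrays, against 77010 and 138459 on the wild type arrays. All 11 had positive differences, as did 5824 of the 12680 genes tested. The groups were apart for 3, all higher in necdin null, beside 12.8% of all genes tested. The 8 LSK markers summed to 37083 and 34527 on the necdin null arrays, against 41786 and 32191 on the wild type arrays. Hoxa9 and Hoxb5os followed the same order of arrays as this LSK sum, highest on wild type replicate 1 and lowest on wild type replicate 2. Hoxa5 shared the highest and the lowest array but not the full order. Hoxa7, Hoxa10, Hoxb2, Hoxb3, Hoxb4 and Hoxb5 had other orders. The part of the cell mixture in these values was not tested, and in a bulk sample fewer cells of a type and less RNA per cell cannot be told apart.

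Stromal cells of bone also transcribe Hox genes, and 9 of the 10 stromal and osteoblast markers measured did not reach 100 on any array; the exception was Pdgfrb, at 1964 to 2344. Together these markers gave 2368 and 2337 on the necdin null arrays, against 2634 and 2563 on the wild type arrays. Of the 6 B lineage markers, 2 were above 100 on every array, and their sum was 1065 and 1168 against 1097 and 1707. The 6 monocyte markers summed to 9051 and 16516 against 7294 and 14678, and the 4 endothelial markers to 684 and 284 against 449 and 377. The 3 T and NK markers summed to 3552 and 4104 against 3780 and 3098. Nearly all of that sum was Nkg7, at 3047 to 4045, as Cd3e and Cd3g did not reach 100 on any array. The 5 erythroid markers summed to 3600 and 5151 against 4620 and 3474, and the 4 megakaryocyte markers to 5603 and 6415 against 8326 and 5344. The sums of these lists overlapped between the groups except for the stromal one, and no marker passed the test. Without Pdgfrb the stromal sums overlapped too, at 364 and 372 on the necdin null arrays, against 291 and 429 on the wild type arrays.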

How the data were processed

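The deposited values are MAS5 signal intensities, per the submitters' processing notes, on a linear scale, with the mean after trimming 2% of probe sets at each end at 500.004 on every array. The sources used here give no detection calls, version or genome build. The platform annotation gave the gene names: of 45101 probe sets, 34958 had 1 symbol, 932 several and 9211 none, which gave 18194 genes. Values were analysed as log2(signal + 3.80), the pseudocount being the 10th percentile of all values. The probe set with the highest mean log2 value stood for its gene, and the 12680 genes not under the 40th percentile of probe sets were tested with limma 3.58.1 in R 4.3.3 (intensity trend, two-sided, Benjamini-Hochberg), a fit checked on simulated arrays. Background was a signal of 100.

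The members and lists were chosen with earlier results of these data known. Named genes were all Hox genes above 100 on at least 1 array, and in each list the 4 of highest signal and those with an unadjusted p under 0.05. Erg, Cdx1, Cdx2, Cdx4 and the low Hox genes described by range were named after their values were seen. Replicate numbers were not treated as pairing: across genes, same-numbered arrays deviated from their groups with a correlation of 0.11, over 2 pairs. The number of arrays limits the precision.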

Additional observations from a re-analysis of the deposited data

How the results depend on the processing

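No Hox gene was called under any alternative run, which changed the pseudocount (1 or 16), filter, normalization, variance model or probe sets, used the replicate number as a block or dropped 1 array. Over all genes the count of 0 became 3 with the replicate block, 0 with quantile normalization and the block (chosen after seeing the data) and 0 to 4 when leaving out 1 array. Counting differences of at least 2-fold whose groups do not overlap, without a p-value, gave 393, of which 1 was a Hox gene, Hoxb5. With the replicate block Hoxb5 kept its difference of -2.41, at an unadjusted limma p of 0.0083 (adjusted p = 0.77).

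The count of 4 Hox genes above background was 2 without _s_at, _x_at and _a_at probe sets (Hoxa9 and Hoxb2), 3 with the mean of all probe sets (without Hoxa10), 7 at a threshold of 50 or by mean signal above 100, 1 at a threshold of 200 (none in cluster B) and 4 to 5 when leaving out 1 array. The median difference of these genes, 0.08, was -0.32 without those probe sets and -0.16 to 0.077 when leaving out 1 array. In cluster A it was -0.069 to 0.27 when leaving out 1 array. In cluster B it rests on Hoxb2 alone, at -0.75; with the threshold of 50, by mean signal or over all members it was 0.52, as Hoxb3 and Hoxb4 joined, and it was -0.78 to -0.27 when leaving out 1 array. No median above background could be given for clusters C and D.

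Signs turned for Hoxa9 with the mean of all probe sets (-0.027), for Hoxa10 with median centring (-0.015) and for Hoxb4 with the mean of all probe sets (-0.12). Leaving out 1 array gave -0.56 to 0.75 for Hoxa5, -0.73 to 0.33 for Hoxa7, -0.069 to 0.27 for Hoxa9, -0.36 to 0.49 for Hoxa10, -0.87 to -0.62 for Hoxb2, 0.32 to 0.72 for Hoxb3, 0.62 to 0.78 for Hoxb4 and -3.79 to -1.03 for Hoxb5. The cause of these changes was not tested.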
